A study of Homo sapiens with 39 samples.

Results

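The genes examined encode integrins, laminins and collagens, the receptors and structural proteins through which epithelial cells hold on to the extracellular matrix. A gene was included where its symbol was that of an integrin alpha or beta chain, a laminin chain or a collagen chain and was present in all 13 expression tables. This gave 82 genes of 45435 in the tables: 18 integrin alpha chains, 8 integrin beta chains, 12 laminin chains and 44 collagen chains. Of these 82, 37 had a mean of at least 1 TPM (a length-corrected share of a library's transcripts, scaled to the same total in every library) over 39 libraries and were tested: 9 integrin alpha, 4 integrin beta, 9 laminin and 15 collagen genes. The other 45 were below that level. None of the 82 was at 0 in all libraries.

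Integrins are heterodimers of an alpha and a beta chain that span the plasma membrane and link matrix outside the cell to actin or keratin filaments inside it. Laminins are trimers of an alpha, a beta and a gamma chain that polymerise into the basement membrane beneath an epithelium. Collagens are triple helices: collagen IV forms the basement membrane network, collagen VI forms beaded filaments beside it, and the fibrillar collagens, such as collagen I, are made mainly by fibroblasts. In intestinal epithelium the integrin made of ITGA6 and ITGB4 anchors cells to laminin through hemidesmosomes. The integrin of ITGA3 and ITGB1 is a second laminin receptor, and those that contain ITGAV bind vitronectin, fibronectin or latent TGF-beta.

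The cells were HCT116, an established human colorectal cancer line, in a Flp-In T-REx version, which takes up a construct at one genomic site and expresses it under doxycycline. The parental group carried no construct. The remaining 12 groups were stable lines, 1 for each of the isoforms 1 to 12 of hepatocyte nuclear factor 4 alpha (HNF4A, a nuclear receptor of liver and gut epithelium). A line held 1 isoform with GFP at the C-terminal end, inserted once, and the study compared each line with the parental cells. All groups, parental cells included, received 2.5 µg/ml doxycycline for 48 h, with selection antibiotics withdrawn at induction. Earlier selection differed: blasticidin S and zeocin for the parental cells, blasticidin S and hygromycin B for the lines. No group expressed GFP alone, and each isoform was represented by 1 line, so isoform, GFP, line and earlier antibiotic cannot be told apart in a comparison with the parental cells. Each group had 3 libraries, made from poly(A)-enriched RNA with a kit that keeps strand. Nothing in the labels says that the 3 came from separate cultures, so p-values measure the spread between these libraries, which may be technical.

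HNF4A transcripts, summed over the isoform rows, averaged 31.5 TPM in the parental cells and between 614 and 1071 TPM in the lines. Libraries listed between 27884 and 30550 genes above 0, and read depth is unknown from TPM. Replicate 1 of isoform 3 stood apart, with 407 TPM of HNF4A against 833 and 772 in the other libraries of that line. All 6 epithelial markers were present in all libraries (EPCAM, CDH1, KRT8, KRT18, KRT19 and CDX2), with a summed level between 3060 and 3190 TPM in parental cells and between 5090 and 5590 in isoform 1. Their sum was also above parental in isoforms 2 (4150 to 4470), 3 (3340 to 3410) and 7 (4480 to 4650). The same held in isoforms 8 (4090 to 4470) and 11 (3940 to 4190). The sum was below parental in isoforms 4 (2780 to 2980), 5 (2690 to 2760) and 6 (2490 to 2780). So it was in isoforms 10 (2960 to 3040) and 12 (2600 to 2680), while isoform 9 (3060 to 3410) overlapped the parental range. None of 5 fibroblast markers reached a mean of 1 TPM, their summed level lay between 0.6 and 1.62 TPM, and LUM was at 0 in 35 libraries. The endothelial marker PECAM1 ranged from 1.14 to 6.43 TPM, and the other 3 endothelial markers stayed at or below 0.601 TPM. The endothelial sum lay between 2.59 and 3.17 TPM in parental cells, 5.24 and 6.93 in isoform 1, 4.38 and 4.78 in isoform 2, 4.13 and 5.45 in isoform 11 and 1.69 and 2.24 in isoform 6. This sum was also above parental in isoforms 7 (3.84 to 4.41) and 8 (3.68 to 4.27) and below it in isoform 12 (2.17 to 2.37). The remaining lines overlapped the parental range. The leukocyte markers PTPRC, CD3E and CD14 stayed at or below 0.376 TPM. In whole-culture RNA, fewer cells expressing a gene and less RNA per cell cannot be told apart.

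Upstream sequences are shown for 2 sets of genes: the starts of collagen IV genes that face each other head to head, because these pairs are compared below, and the starts of 3 of the genes with the widest changes. They are RefSeq promoter windows (assembly GRCh38.p14), trimmed to bases upstream of annotated exons, written 5′ to 3′ on the strand of the named gene. Capitals mark CG dinucleotides. No RefSeq window was available here for ITGA3, ITGB4 and COL6A1.
COL4A3, chr2:227164454-227164564, plus strand, the stretch between the annotated starts of COL4A4 and COL4A3: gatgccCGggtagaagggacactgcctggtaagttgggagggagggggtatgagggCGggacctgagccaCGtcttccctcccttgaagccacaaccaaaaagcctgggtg
COL4A5, chrX:108439588-108439837, plus strand, facing COL4A6: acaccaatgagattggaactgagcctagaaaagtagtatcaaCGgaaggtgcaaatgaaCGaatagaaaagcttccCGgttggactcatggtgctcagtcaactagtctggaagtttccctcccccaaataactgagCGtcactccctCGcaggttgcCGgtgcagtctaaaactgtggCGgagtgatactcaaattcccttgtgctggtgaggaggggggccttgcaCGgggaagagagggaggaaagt
COL12A1, chr6:75206054-75206303, minus strand: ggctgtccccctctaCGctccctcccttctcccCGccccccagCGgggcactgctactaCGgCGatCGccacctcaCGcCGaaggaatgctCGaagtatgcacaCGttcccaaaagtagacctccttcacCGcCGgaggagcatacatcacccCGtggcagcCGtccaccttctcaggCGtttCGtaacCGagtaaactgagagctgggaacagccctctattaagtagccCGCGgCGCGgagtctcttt
LAMB2, chr3:49133119-49133300, minus strand: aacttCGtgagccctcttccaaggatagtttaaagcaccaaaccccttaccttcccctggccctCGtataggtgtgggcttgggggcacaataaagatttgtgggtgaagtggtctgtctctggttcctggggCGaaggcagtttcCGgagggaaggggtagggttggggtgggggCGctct
ITGB8, chr7:20330650-20330701, plus strand: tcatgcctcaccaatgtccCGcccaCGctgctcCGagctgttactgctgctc

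The COL12A1 stretch held 21 CG dinucleotides in 250 bases and the COL4A5 stretch 8 in 250. The stretch between COL4A4 and COL4A3 held 3 in 111 bases. RefSeq windows of 300 bases (250 before a start and 50 after) were matched by symbol for 58 of the 82 genes, in 77 windows. They covered 28 of the 37 tested genes, so ITGA3 and ITGB4, among others, were not searched. A search on both strands for letters that HNF4A is known to bind found CAAAGTCCA in 0.384% of all 35116 windows, CAAAGGTCA in 0.407%, and the looser CAAAGNNCA, which contains both, in 5.28%. None of the 77 windows held any of them, which says only that these letters are not within these windows.

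Levels differed widely among the 37 tested genes. ITGB1, the beta chain shared by most matrix-binding integrins, was the most abundant, with a mean of 175 TPM over the 39 libraries. Next came ITGB5, a partner of ITGAV in vitronectin binding (82.3 TPM), COL6A2 (72 TPM) and ITGA3 (56.1 TPM). The most abundant laminin chain was the gamma chain LAMC1 (41.8 TPM), followed by LAMC3 (30.2 TPM) and LAMB2 (29.9 TPM). COL1A1, a chain of fibrillar collagen I, was at 11.3 TPM. Both chains of the hemidesmosomal integrin were detected in parental cells, ITGA6 at 31.2 and ITGB4 at 25.2 TPM, as were LAMA3 at 2.42 and LAMB3 at 2.06 TPM, chains of its laminin ligand. The collagen IV chains were unequal, with COL4A5 at 7.11, COL4A4 at 2.97, COL4A3 at 1.52 and COL4A6 at 1.51 TPM in parental cells, while COL4A1 and COL4A2, the usual chains of most basement membranes, were at 0.0305 and 0.034 TPM.

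**Figure D1:**
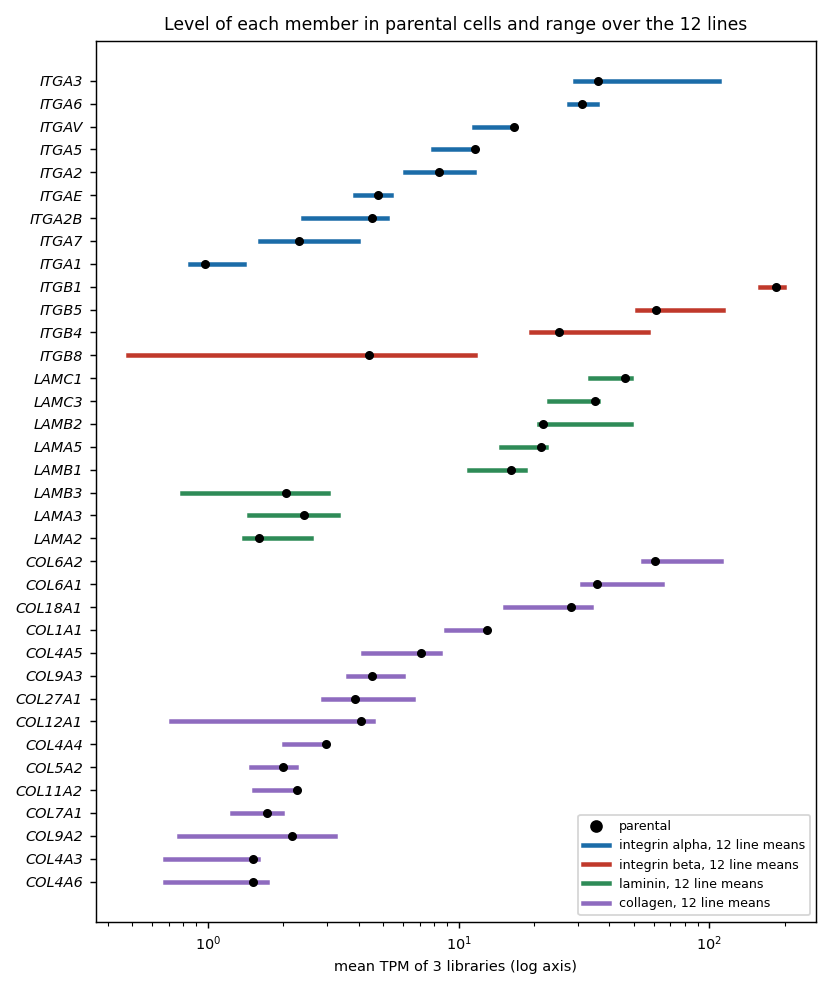
Level of 36 of the 37 tested genes as mean TPM of 3 libraries on a log axis. Black points are the parental cells and coloured bars span the lowest to the highest of the 12 line means. ITGB1 lies at the top of the range in all groups with a narrow bar (160 to 198 TPM), while ITGB8 has a wide one (0.482 to 11.6 TPM).

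Each line was compared with the parental cells on log2(TPM + 1), a scale that understates changes of low genes. A gene is said to have passed, risen or fallen where limma's adjusted p was under 0.05, and to have been called where the log2 change was also at least 1 in size. In isoform 1, 3 of the 37 genes were called (ITGA3 and LAMB2 higher, ITGB8 lower), against 4.52% of all 15003 genes tested. In isoform 2, 4 were called (ITGA3 and ITGB4 higher, ITGB8 and COL12A1 lower), against 3.73% of all genes. Isoform 11 had 2 calls (ITGA3 higher and ITGB8 lower, 1.7% of all genes). ITGB8 was the single call in isoforms 4 (0.54%), 7 (2.08%), 8 (1.41%) and 9 (0.827%). No gene of the set was called in isoform 3 (0.807% of all genes), 5 (0.293%), 6 (0.247%), 10 (1.44%) or 12 (0.573%), where limma gave 22, 18, 13, 20 and 15 of the 37 an unadjusted p under 0.05 (37.1%, 26.9%, 23.1%, 45.5% and 27.8% of all genes). The 13 calls fell on 5 genes: ITGB8, ITGA3, ITGB4, LAMB2 and COL12A1. These comparisons share the same 3 parental libraries, so their results are not independent of one another.

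Smaller differences were widespread. In isoform 1, 13 of the 37 rose and 12 fell at the adjusted p alone, where 19.8% of all genes rose and 38.7% fell. That split changed with the filter on low genes, as given in the last section. In isoform 2, 11 rose and 14 fell (19.7% and 35.6% of all genes). Isoform 7 had 7 higher and 14 lower (13.4% and 26.2%), isoform 8 had 6 and 16 (16.9% and 17.5%) and isoform 11 had 6 and 15 (14.5% and 24%). In isoform 9, 1 rose and 14 fell, where 10.9% of all genes rose and 11.8% fell. Isoform 3 had 5 higher and 9 lower (11.2% and 14.7%). Isoform 10 had 7 higher and 9 lower (17% and 20.4%), a split that became 8 higher and 6 lower when libraries were rescaled by their median ratio. Isoform 12 had 2 higher and 8 lower (7.92% and 6.65%), isoform 4 had 3 and 6 (6.26% and 10.1%), isoform 5 had 7 and 7 (9.57% and 5.22%) and isoform 6 had 2 and 5 (5.94% and 4.13%). The median log2 change of the 37 was -0.06 in isoform 1, where that of all genes was -0.11, and -0.2 in isoform 9, where that of all genes was 0. In isoform 7 it was -0.18 against -0.06 and in isoform 8 -0.17 against -0.01. COL7A1, the anchoring fibril collagen, passed in no line.

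**Figure D2:**
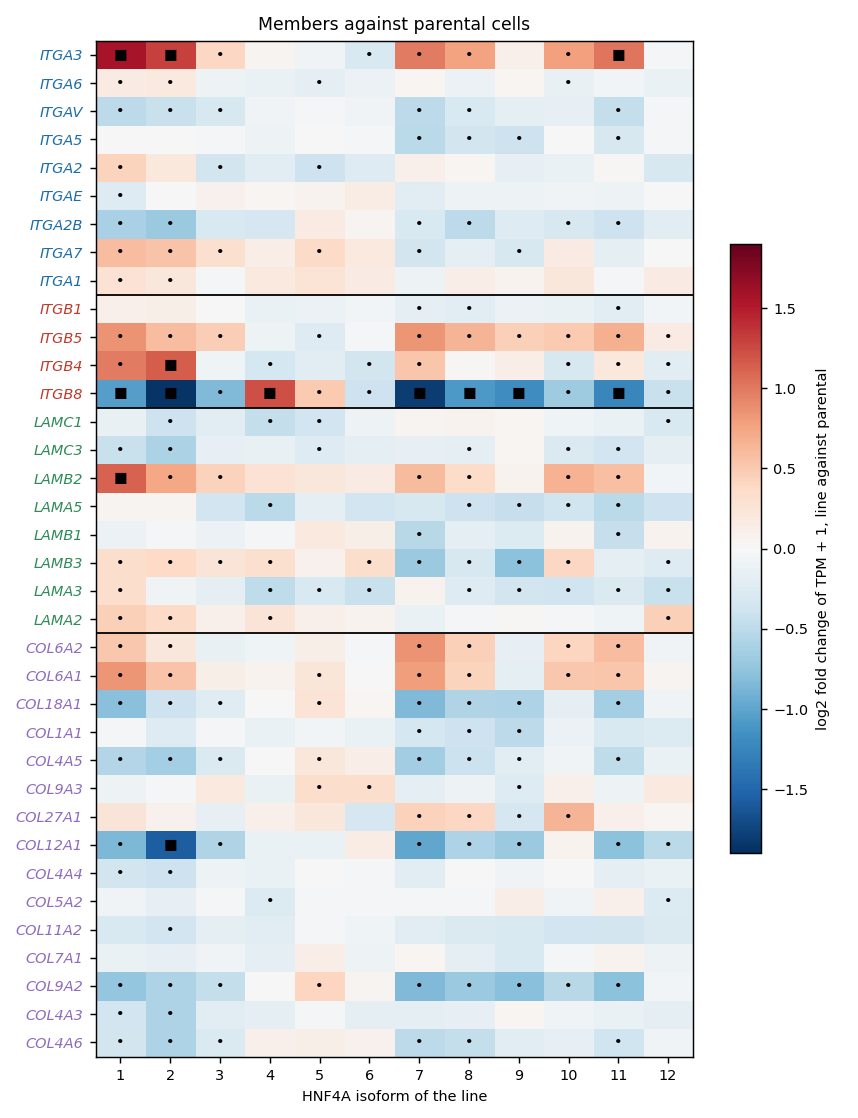
Log2 change of TPM + 1 of 36 of the 37 tested genes (rows, grouped by role) in each of the 12 lines (columns) against parental cells, with red higher and blue lower. Squares mark the 13 calls and dots the other values past the adjusted p. ITGB8 is the row with calls in both directions, lower in 6 lines and higher in isoform 4.

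Among integrin beta chains, ITGB8 differed most. ITGB8 pairs only with ITGAV, and that integrin is known for activating latent TGF-beta. The gene lies on chromosome 7, 20330702 to 20415754, plus strand (GRCh38), just downstream of the stretch shown above. It stood at 4.45, 4.41 and 4.3 TPM in the parental libraries. In isoform 2 it was at 0.518, 0.556 and 0.371 TPM, a log2 change of -1.86 ± 0.11 (SE, n = 3 libraries per group, limma adjusted p = 7.29e-15). Isoform 7 was close to this level, at 0.519, 0.585 and 0.501 TPM (log2 change -1.81 ± 0.11, limma adjusted p = 3.32e-14). Neither line overlapped the parental libraries, and the 2 lines overlapped each other.

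ITGB8 was also called lower in isoforms 1, 8, 9 and 11. Its libraries were at 1.62, 1.58 and 1.63 TPM in isoform 1 (log2 change -1.04), a call that was not made after median-ratio rescaling (-0.94). They were at 1.75, 1.39 and 1.45 TPM in isoform 8 (-1.09). In isoform 9 the values were 1.24, 1.13 and 1.82 TPM (-1.18), and in isoform 11 they were 1.49, 1.48 and 0.935 TPM (-1.24). ITGB8 fell by less in isoform 3 (2.45, 1.61 and 2.02 TPM), isoform 10 (2.65, 2.31 and 2.16 TPM), isoform 12 (2.74, 3.3 and 2.95 TPM) and isoform 6 (3.72, 2.92 and 2.7 TPM). All libraries of these 10 lines lay below the lowest parental library.

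Isoform 4 went the other way. ITGB8 was at 10.9, 12.9 and 10.9 TPM in the 3 libraries of isoform 4, a log2 change of 1.22 ± 0.11 (limma adjusted p = 1.26e-09). In isoform 5 it was at 6.88, 6.6 and 6.35 TPM, which was also higher than parental (0.5 ± 0.11, adjusted p = 0.00187). The direct comparison of isoform 4 with each other line, a test chosen after these values were seen, gave log2 differences from 0.72 ± 0.11 against isoform 5 (adjusted p = 2.36e-05) to 3.08 ± 0.11 against isoform 2 (adjusted p = 9.21e-20). ITGAV, the alpha chain of this integrin, was at 15.6, 17 and 17.5 TPM in parental cells and fell in 6 lines. Its widest change was in isoform 1, at 10.9, 11.7 and 11.9 TPM (-0.5, adjusted p = 4.41e-05). ITGAV also fell in isoform 3 (-0.31), where the adjusted p was 0.0528 without replicate 1 of that line. No other of the 14 genes that passed in isoform 3 lost its adjusted p without that library.

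**Figure D3:**
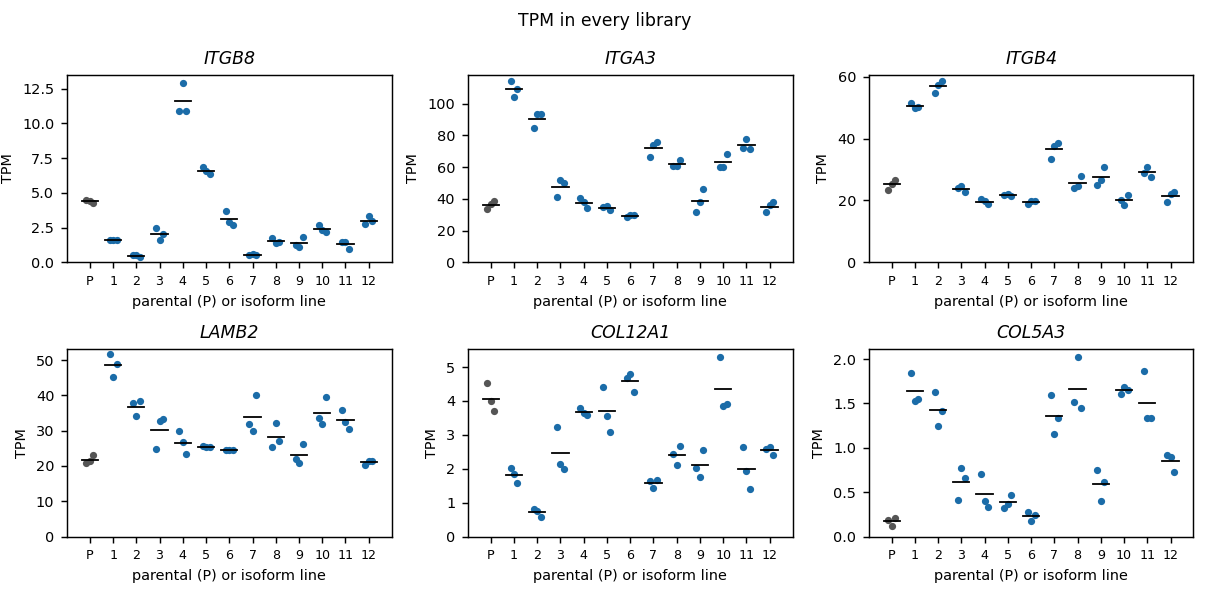
TPM of ITGB8, ITGA3, ITGB4, LAMB2, COL12A1 and COL5A3 in every library, by group (P, parental; numbers, isoform of the line), with a bar at the mean of 3 libraries. ITGB8 reaches 12.9 TPM in isoform 4 and lies under 0.6 TPM in isoforms 2 and 7, while ITGA3 exceeds 100 TPM in isoform 1 only.

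The other beta chains differed in size and in direction. ITGB5 was at 62, 61.8 and 60.7 TPM in parental cells and at 115, 110 and 114 TPM in isoform 1, a log2 change of 0.86 ± 0.04 (limma adjusted p = 8.49e-17). It rose in 9 lines, by 0.15 in isoform 12 up to 0.84 in isoform 7 and 0.86 in isoform 1, and fell by 0.25 in isoform 5. Its changes were precise but none reached the minimum for a call. ITGB4, the long-tailed beta chain that binds keratin linkers in hemidesmosomes, lies on chromosome 17, 75721328 to 75757818, plus strand. ITGB4 was at 23.5, 25.3 and 26.7 TPM in parental cells and at 54.7, 57.2 and 58.7 TPM in isoform 2, with no overlap (log2 change 1.15 ± 0.07, limma adjusted p = 1.1e-14). Isoform 1 was just short of a call, at 51.4, 49.9 and 50.1 TPM (0.98). There the change was 1.02 without parental replicate 3 and 1.11 after median-ratio rescaling. ITGB4 also rose in isoforms 7 (0.52) and 11 (0.2), and it fell in isoforms 4 (-0.34), 6 (-0.35), 10 (-0.31) and 12 (-0.22). ITGB1 varied least: it was at 178, 191 and 182 TPM in parental cells and at 162, 151 and 166 TPM in isoform 8, its widest change (-0.2, adjusted p = 0.00155).

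Among alpha chains, ITGA3 rose most. ITGA3 partners ITGB1 in a receptor for epithelial laminins, and the gene lies on chromosome 17, 50055968 to 50090481, plus strand. Its parental libraries were at 33.3, 36.6 and 38.3 TPM. In isoform 1 it was at 114, 104 and 109 TPM, a log2 change of 1.57 ± 0.09 (limma adjusted p = 8.22e-15). In isoform 2 it was at 84.9, 93.2 and 93.1 TPM (1.3 ± 0.09, limma adjusted p = 8.29e-13), so the libraries of both lines lay above all parental libraries and did not overlap each other. In isoform 11 it was at 72.1, 77.9 and 71.6 TPM (1.02 ± 0.09), a call lost without parental replicate 1 (0.96) or without isoform 11 replicate 2 (0.98). Isoform 7 lay just under the minimum, at 66.4, 73.8 and 75.8 TPM (0.98), and passed it after rescaling (1.07). ITGA3 also rose in isoforms 8 (0.76), 10 (0.78) and 3 (0.39) and fell in isoform 6 (-0.29).

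The remaining alpha chains changed by less than the minimum for a call. ITGA6, the partner of ITGB4, stayed near its parental 29.4, 32.9 and 31.4 TPM, with its widest change in isoform 2 at 37.3, 36.5 and 33.7 TPM (0.19, adjusted p = 0.00238). ITGA5, the fibronectin receptor chain, fell in 4 lines, most in isoform 7 (parental 11.6, isoform 7 7.9 TPM, -0.51). ITGA7, a laminin receptor chain best known in muscle, rose in 4 lines and fell in isoforms 7 (-0.35) and 9 (-0.31). It was at 2.28, 2.24 and 2.45 TPM in parental cells and at 4.25, 3.78 and 3.84 TPM in isoform 1 (0.58). ITGA2, a collagen receptor chain, rose in isoform 1 (0.42) and fell in isoforms 3 (-0.35) and 5 (-0.39), while its neighbour ITGA1, also a collagen receptor chain, rose in isoforms 1 (0.28) and 2 (0.21). ITGA2B, known as the platelet fibrinogen receptor chain, fell in 6 lines, most in isoform 2 (-0.7). ITGAE, known from lymphocytes within epithelium, fell in isoform 1 only at this threshold (-0.24). Of the 9 alpha chains, 5 rose and 3 fell in isoform 1 (19.8% and 38.7% of all genes), and 1 rose and 4 fell in isoform 7 (13.4% and 26.2%).

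Among laminins the beta chain LAMB2 was the only one called. LAMB2 lies on chromosome 3, 49121114 to 49133118, minus strand. It was at 20.9, 21.4 and 23.1 TPM in parental cells and at 51.6, 45.3 and 49 TPM in isoform 1, without overlap (log2 change 1.12 ± 0.11, limma adjusted p = 2.98e-10). It rose in 6 other lines: isoforms 2 (0.73), 10 (0.66), 7 (0.6), 11 (0.57), 3 (0.44) and 8 (0.35). LAMB1, the beta chain that takes the same place in other laminin trimers, rose in none and fell in isoforms 7 (-0.52) and 11 (-0.44). The summed epithelial and endothelial markers were also highest in isoform 1, and their part in the results for LAMB2, ITGA3 and ITGB4 was not tested.

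The gamma chains LAMC1 and LAMC3 fell in several lines and rose in none. LAMC1 was at 43.2, 47.1 and 48.4 TPM in parental cells and at 34.2, 32.2 and 33.6 TPM in isoform 4 (-0.46 ± 0.07, limma adjusted p = 4.25e-05), and it fell in 4 lines. LAMC3 was at 33.5, 36.1 and 35.7 TPM in parental cells and at 24, 23.2 and 21.3 TPM in isoform 2 (-0.6, adjusted p = 2.09e-08), and it fell in 6 lines. LAMA3 and LAMB3, chains of the laminin of hemidesmosomes, did not move as one. LAMA3 fell in 8 lines and rose in isoform 1 (0.33). LAMB3 rose in 6 lines and fell in 4. The fall was deepest in isoform 9, at 0.759, 0.842 and 0.764 TPM against 1.87, 2.18 and 2.14 TPM in parental cells (-0.78, adjusted p = 1.57e-08). LAMA5, the main alpha chain of mature epithelial basement membranes, fell in 5 lines (-0.51 in isoforms 4 and 11), and LAMA2, best known in muscle, rose in 4 (0.46 in isoform 12).

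Among collagens COL12A1 changed most. Collagen XII associates with collagen I fibrils, and COL12A1 lies on chromosome 6, 75084326 to 75206051, minus strand. It was at 4.52, 3.99 and 3.7 TPM in parental cells and at 0.803, 0.765 and 0.564 TPM in isoform 2, a log2 change of -1.57 ± 0.13 (limma adjusted p = 2.74e-11). It fell in 7 other lines, from -0.98 in isoform 7 (1.65, 1.42 and 1.66 TPM) and -0.85 in isoform 1 to -0.51 in isoform 12. In isoform 7 the change was -1.03 without parental replicate 3. COL1A1, a chain of collagen I, fell in isoforms 7 (-0.34), 8 (-0.4) and 9 (-0.5) and was at 13 TPM in parental cells and 12.7 TPM in isoform 1. COL1A2, the other chain of the usual collagen I trimer, was under the level for testing, with a mean of 0.0102 TPM over all libraries.

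Of the collagen VI genes, COL6A1 and COL6A2 rose in several lines. COL6A1 was at 34.9, 36.1 and 35.7 TPM in parental cells and at 73.9, 60.7 and 59.6 TPM in isoform 1 (0.84, limma adjusted p = 2.15e-10). COL6A2 was at 58.1, 62.4 and 62 TPM in parental cells and at 106, 109 and 118 TPM in isoform 7 (0.85, limma adjusted p = 1.61e-11). Both rose in isoforms 1, 2, 7, 8, 10 and 11, and COL6A1 also in isoform 5 (0.23). COL6A3, the third chain of the usual collagen VI trimer, was under the level for testing, with a mean of 0.508 TPM in parental cells, 0.201 in isoform 1 and 1.14 in isoform 4. A fit without the filter on low genes was examined for COL6A3 in isoforms 1 to 9. There it fell in isoforms 1 (-0.33), 2 (-0.19), 7 (-0.28), 8 (-0.26) and 9 (-0.28). It rose in isoforms 4 (0.5), 5 (0.23) and 6 (0.22).

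Several other collagens fell in many lines and rose in isoform 5. COL18A1, the source of the fragment endostatin, was at 28.3, 29 and 27.3 TPM in parental cells and at 16, 14.9 and 15.2 TPM in isoform 7 (-0.84, adjusted p = 1.84e-10 by limma). It fell in 7 lines and rose in isoform 5 (0.26). COL9A2, a chain of fibril-associated collagen IX, fell in 8 lines, most in isoform 7 (0.637, 0.802 and 0.875 TPM against 2.35, 2.06 and 2.12 in parental cells, -0.84), and rose in isoform 5 (0.41). COL9A3, another chain of collagen IX, fell only in isoform 9 (-0.25) and rose in isoforms 5 (0.33) and 6 (0.34). COL27A1, a fibrillar collagen, rose in isoforms 7, 8 and 10 (0.64 in isoform 10) and fell in isoform 9 (-0.32). COL5A2 fell in isoforms 4 and 12 (-0.26 in both) and COL11A2 in isoform 2 (-0.36). Of the 15 collagens, 2 rose and 7 fell in isoform 1 (limma, where 19.8% of all genes rose and 38.7% fell), and 5 rose and none fell in isoform 5 (9.57% and 5.22% of all genes). Over all 37 genes, the 14 that passed in isoform 5 became 8 without parental replicate 2, without parental replicate 3 or without 1 library of isoform 5.

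The head-to-head collagen IV genes were compared within pairs. COL4A5 and COL4A6 start 347 bp apart on chromosome X. COL4A5 averaged 7.11 TPM in parental cells and 4.15 in isoform 7 (-0.66, limma adjusted p = 7.2e-09), and COL4A6 averaged 1.51 TPM in parental cells and 0.781 in isoform 7 (-0.5, adjusted p = 6.3e-06). Both fell in isoforms 1, 2, 3, 7, 8 and 11, and COL4A5 also fell in isoform 9 (-0.21) and rose in isoform 5 (0.22). COL4A4 and COL4A3 start 112 bp apart on chromosome 2, on either side of the stretch shown above. Both fell in isoforms 1 (-0.35 and -0.36) and 2 (-0.39 and -0.59) and passed in no other line. Other neighbours differed in direction: in isoforms 7 and 8 ITGA3 rose while COL1A1, which starts 145664 bp away, fell.

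**Figure D4:**
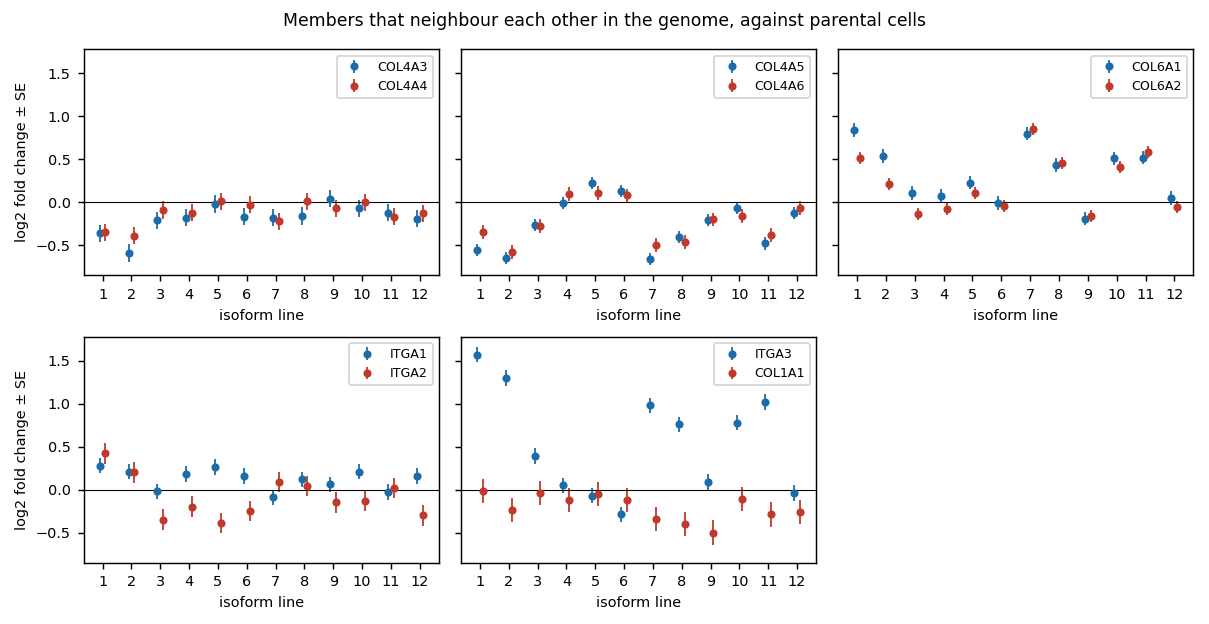
Log2 change against parental cells with its standard error in each of the 12 lines, for 5 pairs of tested genes that lie beside each other in the genome. Each panel holds one pair in 2 colours. COL6A1 and COL6A2 both rise in 6 lines (COL6A1 also in isoform 5). COL4A5 and COL4A6 both fall in 6 (COL4A5 also in isoform 9). ITGA3 and COL1A1 part in isoforms 7 and 8, where the falls of COL1A1 did not pass in the authors' own comparison.

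Lines were also compared by isoform class, with each line's mean as 1 value and 12 values in all. The classes come from the standard nomenclature of HNF4A isoforms, not from the labels: isoforms 1-3, 4-6, 7-9 and 10-12 differ at the N-terminus, and isoforms 3, 6, 9 and 12 share a short C-terminus. Between isoforms 4-6 and isoforms 1-3, 2 of the 37 genes were called, against 1.95% of all genes. ITGB8 was higher in isoforms 4-6 (log2 difference 1.69 ± 0.41, limma adjusted p = 0.0142), with line means of 11.6, 6.61 and 3.11 TPM in isoforms 4, 5 and 6 and of 1.61, 0.482 and 2.02 TPM in isoforms 1, 2 and 3. Without the filter on low genes its adjusted p was 0.0587. ITGA3 was lower in isoforms 4-6 (-1.19 ± 0.15, limma adjusted p = 0.00155), with line means of 37.4, 34.2 and 29.2 TPM against 109, 90.4 and 47.6 TPM. In both genes the lines of the classes did not overlap. The summed epithelial markers were likewise lower in isoforms 4-6 than in isoforms 1-3 (highest library 2980 against lowest library 3340 TPM), and their part in these differences was not tested.

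At the adjusted p alone, 9 genes were higher and 7 lower in isoforms 4-6 than in isoforms 1-3 (22.1% of all genes were higher and 12.6% lower), and 8 were higher and 10 lower after rescaling. The higher ones included COL12A1 (0.96), COL9A2 (0.75), COL4A5 (0.61), COL18A1 (0.58) and COL4A6 (0.5). The lower ones included ITGB4 (-0.98), ITGB5 (-0.77), LAMB2 (-0.54) and LAMA3 (-0.43). The median log2 difference of the 37 was -0.03 and that of all genes was 0.07.

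Between isoforms 7-9 and isoforms 1-3 no gene of the set was called (0.52% of all genes), while limma gave 12 of the 37 an unadjusted p under 0.05, a share near that of all genes (31.9%). At the adjusted p 1 was higher and 6 were lower in isoforms 7-9 (6.65% and 4.95% of all genes). LAMB3 was lower by 0.92 on the log2 scale (-0.92 ± 0.17, limma adjusted p = 0.0155), with line means of 0.874, 1.47 and 0.788 TPM in isoforms 7, 8 and 9 against 2.89 and 3 TPM in isoforms 1 and 2. ITGA7 was lower as well (-0.75 ± 0.12, limma adjusted p = 0.00891), as were ITGA5 (-0.4), LAMB2 (-0.42), COL1A1 (-0.31) and ITGB1 (-0.24). LAMC3 was the higher one (0.29). Without the filter on low genes LAMC3 did not pass, and at most 1 of the 6 lower genes did. For the short C-terminus no gene of the set was called or passed (0.00667% of all genes called and 0.0133% passed), and 8 of 37 had an unadjusted p under 0.05 by limma, also near the share of all genes (18.2%). The nearest was ITGA3 (-0.76 ± 0.11, limma adjusted p = 0.0846).

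**Figure D5:**
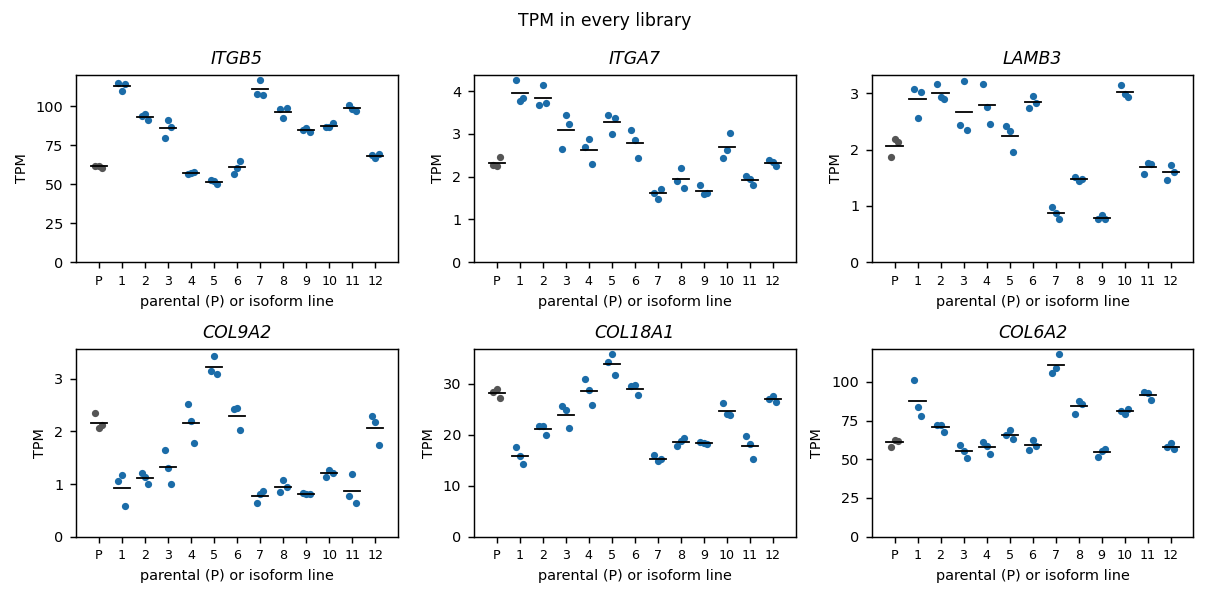
TPM of ITGB5, ITGA7, LAMB3, COL9A2, COL18A1 and COL6A2 in every library, by group (P, parental; numbers, isoform of the line), with a bar at the mean of 3 libraries. ITGA7 and LAMB3 are lower in isoforms 7, 8 and 9 than in isoforms 1 and 2, and COL9A2 and COL18A1 are highest in isoform 5.

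Of the 45 genes under 1 TPM, those with the highest mean in any one group were COL5A3, COL26A1, COL16A1, ITGB7 and COL6A3. COL5A3, a minor chain of collagen V, had a mean of 0.968 TPM over all libraries, just under the filter. It was at 0.19, 0.123 and 0.211 TPM in parental cells and at 1.84, 1.53 and 1.55 TPM in isoform 1. When all genes above 0 were fitted without the filter, COL5A3 was called higher in isoforms 1, 2, 7, 8, 10 and 11 (1.17 ± 0.11 in isoform 1, limma adjusted p = 4.49e-10), and no other gene of the 45 was called in any line. COL4A2, named after its values were seen, rose from 0.034 to 0.664 TPM in isoform 1 in that fit (0.68, limma adjusted p = 2.05e-15), while its head-to-head neighbour COL4A1, whose annotated gene overlaps it by 1421 bp, was at 0.0305 and 0.00409 TPM. ITGB7, the partner of ITGAE, was at 1.21 TPM in parental cells, its highest group. COL26A1 and COL16A1 were highest in isoforms 5 (1.33 TPM) and 6 (1.21 TPM).

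Other genes of matrix assembly and adhesion were described from 6 lists. In isoform 1, 19.8% of all genes rose, 38.7% fell and 4.52% were called, and the counts that follow are to be read against these shares. Of 14 tested genes for collagen modification and processing, 3 rose and 8 fell in isoform 1, with a median log2 change of -0.26 where that of all genes was -0.11. BMP1, the procollagen C-proteinase, rose in isoform 1 from 17.2, 16.5 and 16.7 to 38.2, 35.7 and 37.6 TPM (1.1, limma adjusted p = 1.93e-16) and was also called in isoform 2. PCOLCE2, an enhancer of that proteinase, fell in both (-1.04 and -1.01), and LOXL2, a collagen crosslinking enzyme, fell in isoform 1 (-1.07). Of 6 other tested basement membrane and adhesive proteins, 5 fell in isoform 1. The remaining one was VTN (vitronectin), a ligand of the integrin of ITGAV and ITGB5, which reached the level for testing only through the lines where it was high, so its values are given with no test. VTN was at 0.0378, 0.0275 and 0.021 TPM in parental cells and at 11.5, 8.82 and 13.1 TPM in isoform 1. HSPG2, the proteoglycan perlecan, was called lower in isoforms 1 (-1.1), 2 (-1.07) and 7 (-1.14).

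Inside the cell, 10 of 22 tested focal adhesion genes rose and 6 fell in isoform 1, where 19.8% of all genes rose and 38.7% fell, with a median of 0.09. Of the 22, TNS4 (a tensin that binds integrin tails) was called in any line. It was called lower in 6 lines, most in isoforms 9 and 11 (-1.83 in both), and it was at 6.15, 5.32 and 4.96 TPM in parental cells and at 0.905, 0.914 and 0.649 TPM in isoform 9. Of the 3 hemidesmosome genes, 2 rose and none fell in isoform 1 (median 0.1). PLEC (plectin, which ties ITGB4 to keratins) rose in isoform 1 from 56.5, 57.4 and 61.2 to 125, 124 and 112 TPM (1.03, limma adjusted p = 3.32e-10). None of 8 tested non-integrin matrix receptors was called in any line, and 2 rose and 5 fell in isoform 1 (median -0.31). In single lines, between 0.247% (isoform 6) and 4.52% (isoform 1) of all genes were called. The share of all genes called in any line is not given here. Counts of calls in any line, here and for focal adhesion genes, are therefore not compared with all genes. Of 6 tested matrix proteases and inhibitors, 2 rose and 2 fell in isoform 1 (median 0.1), and the inhibitor TIMP2 was called higher in isoforms 1 (1.29) and 2 (1.36).

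The authors' deposited tables hold their own comparison of each line with the parental cells. Each of the 13 calls also passed at 0.05 with the same sign in the authors' deposited table, as did 186 of the 199 values that passed here. Both comparisons rest on the same libraries, so the authors' values are not independent support. For ITGA3 in isoform 1 the authors' deposited table gives a log2 fold change of 1.73, for ITGB4 in isoform 2 it gives 1.3, for LAMB2 in isoform 1 it gives 1.29, and for COL12A1 in isoform 2 it gives -2.32. ITGB8 is at -2.94 in isoform 2 and -2.72 in isoform 7 there. Some values not called here exceed 1 in size there, such as ITGB5 (1.02) and ITGB4 (1.14) in isoform 1 and COL12A1 (-1.21) in isoform 7.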

How the data were processed

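The authors deposited 13 tables, 1 per group, of TPM for 3 libraries each. The submitters' processing notes name Trimmomatic 0.36, FastQC 0.11.5, kallisto 0.44.0, DESeq2 1.22.2 and the build GRCh38.p12. The annotation is not given in the sources used here. Per the file headers, the 12 line tables also hold the authors' mean normalized count, log2 fold change with its standard error, test statistic (a score), p-value and adjusted p-value, which entered no fit. TPM sums lay between 999972.6 and 999987.7 per library, so depth is unknown and no counting error could be given. The 12 isoform rows of HNF4A were summed. The 6 libraries of isoforms 4 and 5 carry no replicate number.

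The 15003 genes averaging 1 TPM or more across the 39 libraries were tested on log2(TPM + 1) with limma 3.58.1 in R 4.3.3 (empirical Bayes with trend), with 13 group terms and 26 residual degrees of freedom. Class contrasts used the 12 line means, additive in N-terminal and C-terminal form (6 residual degrees of freedom). Benjamini-Hochberg adjustment ran over all tested genes within a comparison. The scripts were tested on simulated data. Gene positions are from GENCODE 29 (GRCh38). The tested genes of the set are named, except 1 that is counted but not reported here, and library values are given for genes called in at least 1 line and for the 3 most abundant of each role, in parental cells and the line with the widest change, and for others where a result turns on them. Of genes under 1 TPM, the 5 with the highest group mean are named, and from each list of other genes those called, at most 4. The genes and lists were chosen with earlier results of these data known. Alternatives tried were a pseudocount of 0.1, no filter, a filter of 5 TPM, median-of-ratios scaling, other minimum changes, single libraries left out, fits of 6 libraries and a replicate block.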

Additional observations from a re-analysis of the deposited data

Results flagged for a closer look

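These genes moved in opposite directions against the parental cells, or to different degrees, in different isoform classes or lines, and the difference itself passed its test (log2 difference ± SE, limma, adjusted over all genes tested). In isoforms 4-6 against isoforms 1-3, lower levels were found for ITGA3 (-1.19 ± 0.15, adjusted p = 0.00155), ITGB4 (-0.98 ± 0.24, adjusted p = 0.0145), ITGB5 (-0.77 ± 0.12, adjusted p = 0.00305) and LAMA3 (-0.43 ± 0.13, adjusted p = 0.0307). Higher levels in isoforms 4-6 were found for ITGB8 (1.69 ± 0.41, adjusted p = 0.0142), COL9A2 (0.75 ± 0.17, adjusted p = 0.0109), COL4A5 (0.61 ± 0.13, adjusted p = 0.00873) and COL18A1 (0.58 ± 0.16, adjusted p = 0.0222). In isoforms 7-9 against isoforms 1-3, ITGA7 (-0.75 ± 0.12, adjusted p = 0.00891) and LAMB3 (-0.92 ± 0.17, adjusted p = 0.0155) were lower. Without the filter on low genes, ITGA7 and LAMB3 did not both pass. In the same setting ITGB8 in isoforms 4-6 against isoforms 1-3 had a limma adjusted p of 0.0587. Between single lines, in a pair that was the widest of 11 and was picked after the line values were seen, ITGB8 was higher in isoform 4 than in isoform 2 by 3.08 ± 0.11 (limma adjusted p = 9.21e-20).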

How the results depend on the processing

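Over all comparisons and settings, 193 counts of called genes were recomputed, and 144 stayed within 1.5 times the reported count. The counts in this section come without the share of all genes under the same setting. They show only how the results depend on the processing, not how the set compares with all genes. No called or passing value reversed. With a pseudocount of 0.1 the counts were 6, 1, 4, 2, 3 and 4 in isoforms 1, 3, 7, 8, 9 and 11, 5 for isoforms 4-6 against 1-3 and 2 for isoforms 7-9 against 1-3. With no filter (82 genes) they were 2 in isoforms 7 and 8, 1 in isoform 10 and 1 for isoforms 4-6 against 1-3. With a filter of 5 TPM, which leaves 19 of the 37 genes and removes ITGB8 and COL12A1, they were 2 in isoform 2, 1 in isoform 11, 0 in isoforms 4, 7, 8 and 9, and 1 for isoforms 4-6 against 1-3. Rescaling gave 2 in isoform 7 and moved the median log2 change of all genes from -0.11 to 0.015 in isoform 1 and from -0.09 to 0.018 in isoform 2. With a minimum of 1.5-fold the counts were 10, 11, 1, 11, 4, 5, 4, 6 and 1 in isoforms 1, 2, 3, 7, 8, 9, 10, 11 and 12, and 7 and 2 for the class contrasts of isoforms 4-6 and 7-9. With no minimum they were 25, 25, 14, 9, 14, 7, 21, 22, 15, 16, 21 and 10 in isoforms 1 to 12, and 16 and 7 for those class contrasts.

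Leaving out single libraries gave 3 to 4 calls in isoform 1, 1 to 3 in isoform 7, 1 to 2 in isoform 11 and 2 to 3 for isoforms 4-6 against 1-3, with no change in the other comparisons. Isoform 7 had 3 calls without parental replicate 3 (ITGA3 1.02 and COL12A1 -1.03 were added) and 2 without isoform 7 replicate 1 (ITGA3 1.03). Of the counts that passed the adjusted p alone, isoform 3 fell from 14 to 9 without isoform 3 replicate 2, isoform 6 from 7 to 4 without parental replicate 2 or isoform 6 replicate 3, and isoform 12 from 10 to 6 without parental replicate 3. Without a filter 43, 33 and 34 genes passed in isoforms 1, 7 and 11 and 1 for isoforms 7-9 against 1-3. With 5 TPM 12, 13, 4, 3, 13, 14, 7 and 5 passed in isoforms 1, 2, 4, 6, 7, 8, 9 and 12. The split in isoform 1 was 16 higher and 27 lower without a filter, 8 and 4 with 5 TPM, and 15 and 11 after rescaling. In fits of 6 libraries, 4 passed in isoform 6 and 8 in isoform 9.

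Libraries of different groups were correlated on log2(TPM + 1) of the tested genes, after each gene's mean within its group was subtracted. What remained correlated weakly between same-numbered libraries (165 pairs, -0.175 to 0.232, median 0.0542, with 38 over 0.1). Those with different numbers had a median of -0.0293. Of 33 numbered libraries, 29 were closest to their own number, so a difference shared by number cannot be set aside. The main fit took no account of it, because the numbers are only names in the labels. With the replicate block, calls were 3 in isoform 1, 4 in isoform 2 and 2 in isoform 11, as without it, and no count of calls changed. Counts past the adjusted p alone rose in isoforms 3 (14 to 16), 7 (21 to 23), 9 (15 to 17), 10 (16 to 18) and 12 (10 to 11). They fell in isoforms 2 (25 to 23) and 11 (21 to 20). Isoforms 4 and 5 carry no numbers and had no such fit. Depth cannot be read from TPM, so the precision of genes near 1 TPM rests on the spread of 3 libraries.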
